A study of Mus musculus with 28 samples.

Results

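Spleen T cells of mice injected with rapamycin-loaded polymersomes (rPS, 5 libraries) were compared with those of mice injected with the same vesicles without drug (PS, 4 libraries). These 9 libraries, of 28 in the series, were chosen by their treatment labels alone and were fitted alone, so the libraries of untreated mice were not used. All 9 came from male C57BL/6J mice aged 8 to 12 weeks that were dosed once a day under the skin of the neck scruff, for 11 doses in 11 days. Both groups received polymersomes of poly(ethylene glycol)-block-poly(propylene sulfide), PS at a polymer and volume dose equal to that of rPS, so the carrier and the injection are shared and the drug is what differs by design. The rPS formulation held rapamycin at 0.125 mg/ml in about 7.5 mg/ml of polymer and was given at 1 mg of rapamycin per kg of body weight. T cells (CD3+) were taken from spleen by magnetic sorting after lysis of red cells, and RNA was sequenced in bulk, with a single count file for each library.

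Polymersomes are hollow vesicles with a water-filled core and a polymer wall that can hold a fat-soluble drug. Rapamycin binds the small protein FKBP12 (Fkbp1a), and the pair blocks mTOR complex 1, a kinase complex that links growth factors and amino acids to protein synthesis and to entry into the cell cycle. In T and B cells that block slows the step from G1 into S phase, and the drug is used against rejection of grafts. Genes of cell division are switched on in order: E2F factors raise the replication genes and the histones in late G1 and S, and factors that read CCAAT boxes and the CHR element (TTTGAA or TTCGAA) raise the mitotic genes in G2 and M. Interferon-stimulated genes, such as the OAS and MX families, carry a different element, the ISRE, here the letters GAAA, any 2 bases and GAAA again.

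Between 4286896 and 9139930 counts were assigned per library, and a count of 0 allows up to 3 counts, or 0.328 to 0.7 CPM (counts per 1000000). This floor covers counting error only. Levels are given as CPM scaled by TMM, edgeR's correction for library composition, and lists of values follow the order PS 1, 3, 4 and 5, then rPS 1, 2, 4, 5 and 7. The rPS libraries spread further: the median over genes of the within-group SD of log2 CPM was 0.209 in PS and 0.459 in rPS. The labels do not say that the libraries of a group are separate mice, so p-values measure only the spread between these samples.

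Markers of the sorted cells were present in all 9 libraries, and so were those of other spleen cells. Cd3e, which codes for the epsilon chain of CD3, lay at 229 to 346 CPM in PS and 131 to 361 CPM in rPS. Pax5, the transcription factor of the B lineage, lay at 570.1, 537, 493 and 663 CPM in PS and 179, 499, 1003, 77.9 and 561 CPM in rPS, so B cell RNA was not removed by the sort. Within rPS, replicate 5 was lowest in the summed B cell, plasma cell, neutrophil, macrophage and red cell lists, though not in those of NK, platelet or acinar genes, and replicate 4 was lowest in T cell receptor genes. The summed level of the 23 B cell genes was 1527 CPM in rPS 5 and 10863 CPM in rPS 4, against 7353 to 9034 CPM in PS. That of the 25 genes of the T cell receptor complex was 9988 CPM in rPS 5 and 4703 CPM in rPS 4, against 6340.3 to 7995 CPM in PS. Neutrophil genes summed to 67.4 to 111 CPM in PS and 24.7 to 171 CPM in rPS, those of platelets to 172 to 201 and 176 to 249 CPM, and those of stroma and endothelium to 200.1 to 229.8 and 204 to 244 CPM. Within these lists Ly6g, Pf4 and Col3a1 had at most 3 counts in any library, while S100a9 (neutrophils) had 6 to 120, Itga2b (platelets) 37 to 71 and Pecam1 (endothelium) 766 to 1958. Some of the results that rest on rPS 4 or rPS 5 are given below without them too.

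**Figure D1:**
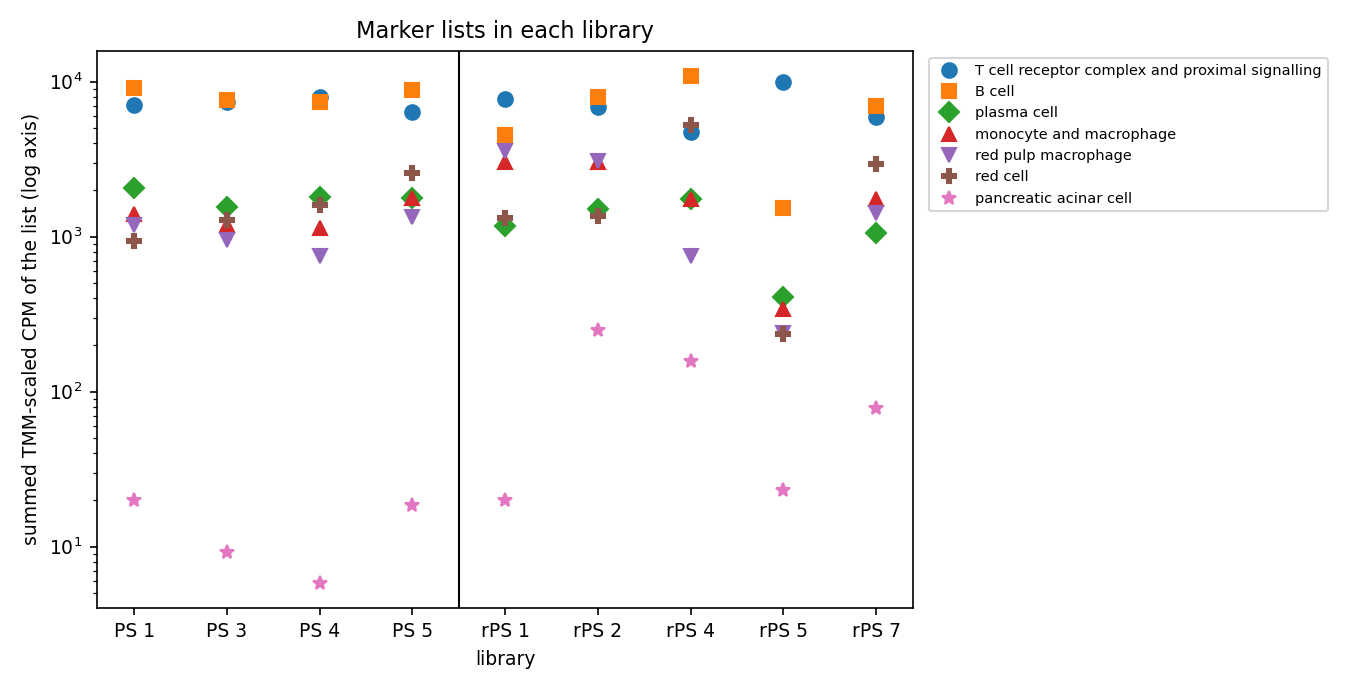
Summed TMM-scaled CPM of 7 marker lists (log axis) in each of the 4 PS libraries, left of the line, and the 5 rPS libraries, right of it; each symbol is 1 list in 1 library. rPS 5 lies lowest in the B cell, plasma cell, macrophage and red cell lists and highest in the T cell list, while the acinar list is lowest in PS 4, at 5.87 CPM, and highest in rPS 2, at 249 CPM.

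Of 15652 genes tested with edgeR's quasi-likelihood test, 6 (0.0383%) had a Benjamini-Hochberg adjusted p under 0.05. Of these, 5 genes (0.0319%) were lower in rPS and 1 (0.00639%) was higher. The gene that rose was Syt6, a synaptotagmin, a family of membrane proteins known for calcium-dependent vesicle fusion. The genes that fell were Pclaf and Cenpk, which serve replication and the kinetochore, the histone gene Hist1h2bk, the interferon-stimulated gene Oas3 and Ighg2c, the constant region of an IgG heavy chain. At an unadjusted p under 0.05 there were 877 genes (5.6%), 449 higher (2.87%) and 428 lower (2.73%). All 5 rPS libraries lay above all 4 PS libraries for 228 genes (1.46%) and below them for 262 (1.67%). On CPM of the plain library total, without TMM, the same counts were 116 (0.741%) and 410 (2.62%).

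The count of 6 depended on which libraries were in the fit. It was 0 without any of the 4 PS libraries or without rPS 7, 2 without rPS 2, 6 without rPS 1, 9 without rPS 5 and 10 without rPS 4. Without rPS 4 and rPS 5 together, an alternative chosen after seeing the data, it was 114 (65 higher, 49 lower) and included the 6. In the 5 fits with no call, 532 to 808 genes had an unadjusted p under 0.05. DESeq2 on the 9 libraries called 111, also with all 6 among them. The 6 genes kept their direction under every alternative in which they were fitted. Log2 fold changes are rPS against PS with their SE, and adjusted p-values below are edgeR's unless another tool is named.

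**Figure D2:**
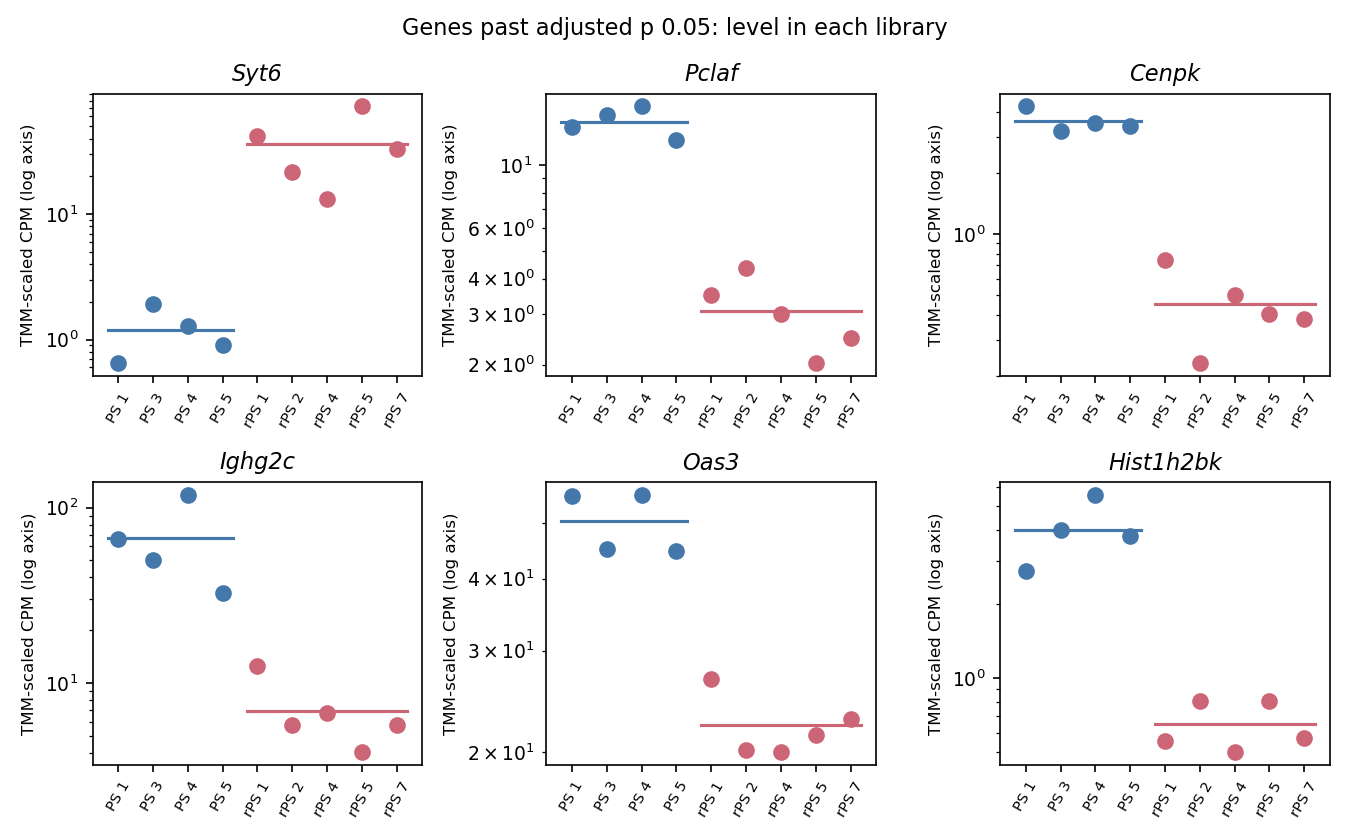
TMM-scaled CPM (log axis) of the 6 genes with an adjusted p under 0.05, 1 panel per gene; points are libraries (blue PS, n = 4; red rPS, n = 5) and lines are group means. In each panel the 2 groups do not overlap, and the gap is widest for Syt6, at 0.646 to 1.93 CPM in PS and 13.3 to 72.2 CPM in rPS. Cenpk, Hist1h2bk and Syt6 passed the filter on low counts through a single group, so their gaps describe these genes only.

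Pclaf (ENSMUSG00000040204.7), the small protein that binds the sliding clamp PCNA during replication, fell. It lay at 13.6, 14.9, 16.02 and 12.2 CPM in PS and 3.52, 4.36, 3.01, 2.02 and 2.48 CPM in rPS. All 5 rPS libraries were below every PS library, and the values were close together within both groups. The log2 fold change was -2.19 ± 0.25 (SE; adjusted p = 0.0253), with a 95% interval of -2.75 to -1.63. It passed in 15 of 21 alternatives. In sorted bulk cells, fewer dividing cells and less RNA in each of them cannot be told apart.

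Cenpk (ENSMUSG00000021714.16), a subunit of the inner kinetochore that links centromeres to the spindle, fell as well; it was chosen after its values were seen, because its mean level is below 2 CPM. It had 33, 20, 33 and 30 counts in PS and 4, 2, 2, 3 and 2 in rPS, so every rPS library was near the limit of detection. The groups did not overlap, at 3.21 to 4.26 against 0.23 to 0.741 CPM. Cenpk passed the filter on low counts through its PS libraries alone. A gene tested on such terms has to be lower in rPS, so the lack of overlap describes Cenpk only. The log2 fold change of Cenpk was -3.01 ± 0.36 (SE; adjusted p = 0.0253), a size that depends on these few counts, and it passed in 12 of 20 alternatives.

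The 250 bases before the start of both genes hold CCAAT boxes, and they are printed because both genes fell and most promoters of the mitosis list, described below, hold the same letters. Sequences are from RefSeq on build GRCm38.p6, not the files' GRCm39, with CCAAT or its reverse complement in capitals. Pclaf is at chr9:65890073-65890322 (plus strand), and Cenpk is shown in the second of its 3 annotated windows, chr13:104228716-104228965 (plus strand). That window was chosen for its 2 matches; the other 2 windows of Cenpk hold 1 each, and the single window of Pclaf holds 2.
Pclaf: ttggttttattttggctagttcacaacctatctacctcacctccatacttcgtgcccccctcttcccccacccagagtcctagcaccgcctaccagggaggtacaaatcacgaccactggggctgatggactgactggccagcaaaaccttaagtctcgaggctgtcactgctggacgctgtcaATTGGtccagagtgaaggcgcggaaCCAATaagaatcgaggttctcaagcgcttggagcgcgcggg
Cenpk: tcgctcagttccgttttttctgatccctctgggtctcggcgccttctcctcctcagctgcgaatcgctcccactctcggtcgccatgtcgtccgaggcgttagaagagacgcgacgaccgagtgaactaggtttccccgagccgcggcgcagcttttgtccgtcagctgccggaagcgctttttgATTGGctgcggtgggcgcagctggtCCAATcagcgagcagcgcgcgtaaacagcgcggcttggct
CCAAT, on either strand, was in 33.8% of all 32851 windows of this length. It was in 19 of 23 windows (82.6%) of the mitosis list and 18 of 29 (62.1%) of the S phase list. The CHR letters TTTGAA were in 39.1% of the mitosis windows against 16% of all, and in neither of the printed ones, where TTCGAA (1.34% of all) was absent too. The E2F letters TTTCCCGC and TTTGGCGC were in 6.9% and 10.3% of the S phase windows, against 0.895% and 0.417% of all. They were in no window of Pclaf or Cenpk. These are matches of letters only.

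The mitosis list, chosen with earlier results of these data known, lay lower in rPS. All 27 of its tested members (of 28) had a negative log2 fold change, with a median of -1.04 against 0.04 over all genes, where 43.6% were negative. No member passed edgeR's adjusted threshold, and the lowest adjusted p was 0.21. At an unadjusted p under 0.05, 19 of 27 were lower (background 2.73%), and for 13 all rPS libraries lay below all PS libraries (background 1.67%).

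Top2a, the topoisomerase that untangles chromosomes before they part, lay at 69.8, 66.3, 59.04 and 50.7 CPM in PS and 33.1, 27.2, 26.1, 12.1 and 13.9 CPM in rPS. Kif20a, a motor of cytokinesis, lay at 8.66, 10.6, 11.1 and 9.35 CPM in PS and 2.59, 3.33, 6.26, 2.83 and 3.24 CPM in rPS. In both genes every rPS library was below every PS library. Their log2 fold changes were -1.45 ± 0.28 (SE; adjusted p = 0.21) and -1.46 ± 0.28 (SE; adjusted p = 0.21), so neither passed edgeR's threshold. Cdk1, the kinase that starts mitosis, lay at 3.75 to 5.45 CPM in PS (median 4.58) and 0.539 to 3.01 CPM in rPS (median 1.48), and Ccnb2, a cyclin that activates it, at 4.01 to 4.45 CPM in PS (median 4.27) and 0.539 to 2.96 CPM in rPS (median 2.29). Bub1, a kinase of the spindle checkpoint, lay at 2.84, 2.89, 2.35 and 3.53 CPM in PS and 1.85, 1.15, 0.752, 0.135 and 0.762 CPM in rPS. Plk1, which drives spindle assembly and exit from mitosis, lay at 7.24, 8.50, 8.65 and 7.98 CPM in PS and 2.41, 4.02, 4.51, 2.83 and 4.95 CPM in rPS. The PS libraries were above all rPS libraries in Cdk1, Ccnb2, Bub1 and Plk1, genes that were chosen after their values were seen. Bub1 passed the filter on low counts through PS. At the other end of the list, with log2 fold changes nearest to 0, were Kif23 (-0.29) and Nusap1 (-0.36), which overlapped. Mki67, the antigen of dividing cells, overlapped between the groups: it lay at 147, 138, 146 and 89.7 CPM in PS and 78.3, 67.99, 129.8, 26.5 and 55.4 CPM in rPS, and rPS 4 reached the PS range. Cep55, which completes the separation of daughter cells, was outside the list and lay at 4.10 to 5.62 CPM in PS and 0.539 to 1.67 CPM in rPS (log2 fold change -2.23 ± 0.33, adjusted p = 0.0624); it was chosen after its values were seen.

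The summed level of the list was 489.98, 479, 458 and 356 CPM in PS and 265, 237, 358, 115 and 189 CPM in rPS. The lowest was rPS 5, the library with the fewest B and myeloid transcripts, and the highest rPS library, rPS 4, lay just above the lowest PS library. Without rPS 5 the median was -0.84, without rPS 4 and 5 together the median of the mitosis list was -0.997 with 6 of 27 members past the threshold, and with the B cell list as a covariate -0.85 with none past it. For the mitosis list the red cell list as a covariate gave -1.56 with 11 of 27 past it, and the monocyte and macrophage list gave -1.13 with 1. DESeq2 called 5 of the 27. All these calls were lower in rPS. Over all genes, calls lower in rPS were 49 of 15755 without rPS 4 and 5 and 117 of 15652 with the red cell list. They were 11 of 15652 with the monocyte and macrophage list and 69 of 15652 with DESeq2. The part of other dividing cells of the spleen was not tested beyond these fits.

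**Figure D3:**
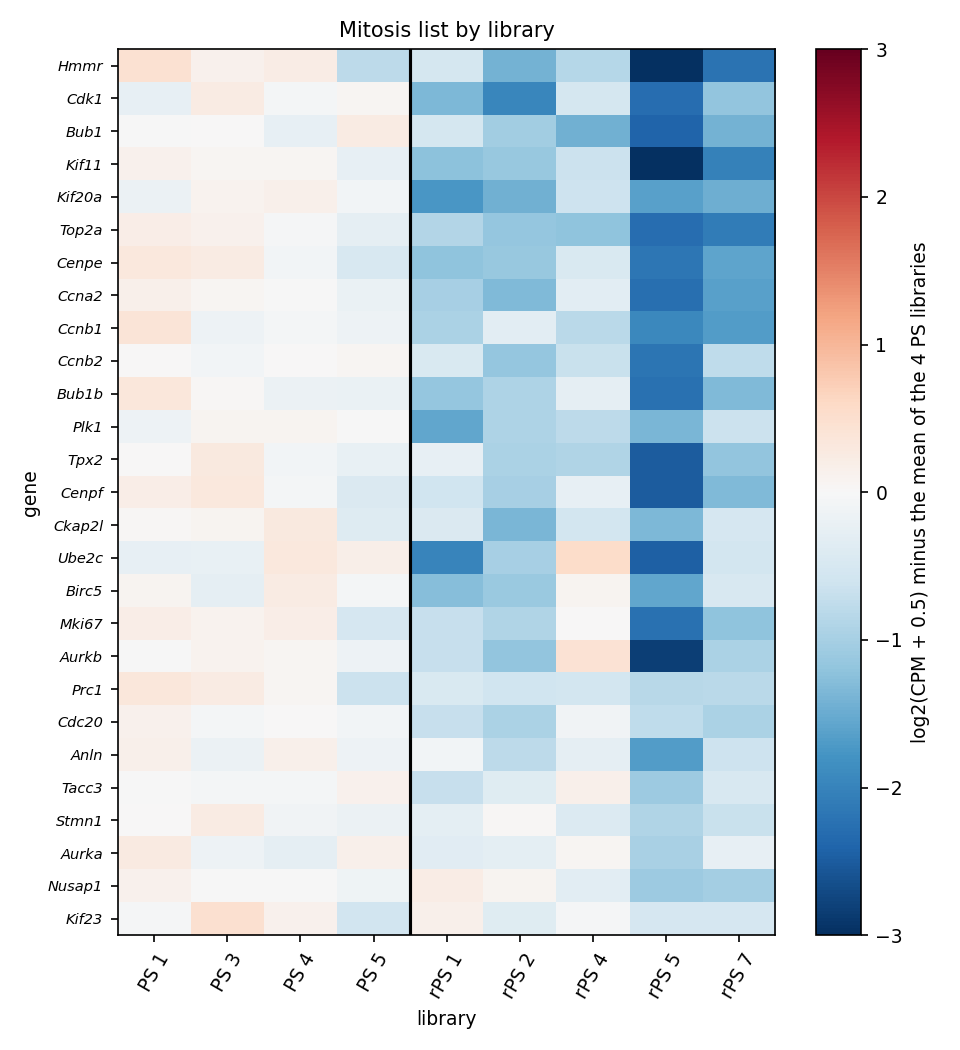
Each row is a gene of the mitosis list and each column a library (4 PS left of the line, 5 rPS right of it); colour is log2(CPM + 0.5) minus the mean of the 4 PS libraries, blue lower and red higher, in log2 units. Most rPS squares are blue and rPS 5 is darkest, while rPS 4 is closest to PS.

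In the S phase list, 1 of 29 members (Pclaf) passed, 7 were lower at an unadjusted p under 0.05 (2.73% of all genes), and the median was -0.27. Uhrf1, which carries DNA methylation through replication, was at 33.3, 32.1, 30.7 and 29.8 CPM in PS and 14.6, 15.7, 17.8, 8.36 and 11.4 CPM in rPS, without overlap (log2 fold change -1.22 ± 0.21, adjusted p = 0.17). Rrm1, a subunit of ribonucleotide reductase, had a log2 fold change of -0.41 ± 0.12 (adjusted p = 0.543). The log2 fold changes of the MCM helicase were small, with Mcm2 at -0.10, Mcm6 at -0.11 and Mcm7 at 0.16. Pcna, the clamp that Pclaf binds, was at 91.2, 102, 84.03 and 72.4 CPM in PS and 76.3, 114, 77.4, 142 and 97.9 CPM in rPS, and the groups overlapped (log2 fold change 0.22 ± 0.20, adjusted p = 0.995). Of 19 genes of homologous recombination, none passed and 7 were lower at an unadjusted p under 0.05 (2.73% of all genes). The log2 fold change of Rad50 was 0.25 and that of Palb2 0.10.

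Of the histone genes of the replication-dependent clusters, whose mRNA is made as DNA is copied, 1 of 56 tested members (of 70) passed. Hist1h2bk (ENSMUSG00000062727.5), which codes for an H2B, had 21, 25, 52 and 33 counts in PS and 3, 7, 2, 6 and 3 in rPS, so the rPS values rest on few reads. Its level was 2.71 to 5.55 CPM in PS and 0.501 to 0.809 CPM in rPS, without overlap, and it fell by 2.56 ± 0.34 on the log2 scale (SE; edgeR adjusted p = 0.0312). It passed in 8 of 20 alternatives. Hist1h2bk passed the filter on low counts through its PS libraries alone, so the lack of overlap describes this gene only. H2B genes are near-identical copies, so how reads were split between them is uncertain.

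Of the 56, 54 had a negative fold change (43.6% of all genes), 29 were lower at an unadjusted p under 0.05 (2.73% of all), 14 did not overlap (1.67% of all), and the median was -1.09. Hist1h2bj lay at 6.85, 6.90, 10.8 and 6.50 CPM in PS and 2.22, 1.84, 3.26, 1.62 and 1.71 CPM in rPS (log2 fold change -1.89 ± 0.29, adjusted p = 0.0877). Hist1h2bg lay at 20.8, 18.6, 34.7 and 33.9 CPM in PS and 4.63, 8.15, 15.3, 9.30 and 7.62 CPM in rPS (log2 fold change -1.60 ± 0.33, adjusted p = 0.237). Hist1h2bm had 29, 29, 38 and 34 counts in PS and 3, 10, 7, 8 and 8 in rPS (log2 fold change -1.76 ± 0.33, adjusted p = 0.172). In these 3, every rPS library was below every PS library. The linker histone Hist1h1c, the member with the highest mean level, overlapped, at 307 to 565 CPM in PS (median 445) and 146 to 426 CPM in rPS (median 268). Over the whole list the summed level was 1484 to 2618 CPM in PS and 659 to 2009.7 CPM in rPS, so the sums overlapped, with rPS 4 high. Hmgb2, a chromatin protein abundant in dividing cells and chosen after its values were seen, lay at 91.9 to 117 CPM in PS and 46.5 to 75.2 CPM in rPS (log2 fold change -0.94 ± 0.16, adjusted p = 0.141).

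Interferon-stimulated genes lay lower as a list, and 1 of 29 tested members (of 30), Oas3, fell. Oas3 (ENSMUSG00000032661.10), an enzyme that senses double-stranded RNA and makes the signal for RNase L, lay at 55.7, 44.9, 55.8 and 44.6 CPM in PS and 26.8, 20.2, 20.04, 21.4 and 22.9 CPM in rPS. The rPS libraries lay close together and every one was below every PS library. The log2 fold change was -1.17 ± 0.15 (SE; adjusted p = 0.0253), with a 95% interval of -1.50 to -0.85, and it passed in 13 of 21 alternatives. The window before its start, chr5:120777660-120777909 (minus strand, RefSeq, GRCm38.p6), is shown because it holds an ISRE, in capitals with a single CCAAT.
Oas3: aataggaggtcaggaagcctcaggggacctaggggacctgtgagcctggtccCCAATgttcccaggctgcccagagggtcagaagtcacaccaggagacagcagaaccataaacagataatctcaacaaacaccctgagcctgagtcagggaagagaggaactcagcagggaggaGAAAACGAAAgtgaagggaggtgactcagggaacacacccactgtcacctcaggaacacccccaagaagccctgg
The ISRE letters, on either strand, were in 2.98% of all windows and in 9 of the 25 (36%) of the interferon list.

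Of the 29, 27 had a negative fold change, with a median of -0.35, 9 were lower at an unadjusted p under 0.05 (2.73% of all genes) and 8 did not overlap (1.67% of all). Mx2, a dynamin-like antiviral GTPase, lay at 6.20, 5.29, 5.45 and 6.84 CPM in PS and 2.59, 2.18, 3.01, 1.62 and 2.67 CPM in rPS (log2 fold change -1.31 ± 0.26, adjusted p = 0.21). Oas2, from the same family as Oas3, lay at 19.5, 16.4, 20.2 and 19.4 CPM in PS and 7.22, 5.05, 7.52, 12.5 and 11.2 CPM in rPS (log2 fold change -1.11 ± 0.26, adjusted p = 0.319). The 2 groups did not overlap in either gene. Xaf1, an interferon-induced partner of cell death inhibitors, lay at 18.6 to 20.5 CPM in PS and 8.96 to 13.5 CPM in rPS (log2 fold change -0.87 ± 0.18, adjusted p = 0.27). The list was not uniform: Irf7, the factor that amplifies the response, overlapped at 56.6 to 78.8 against 38.4 to 74.9 CPM, and the log2 fold change of Isg15 was 0.10 and that of Rsad2 0.23. The median stayed between -0.59 and -0.31 over the alternatives. Of 20 MHC class I genes, many of them interferon targets, none passed, 2 were lower at an unadjusted p under 0.05 (2.73% of all genes), and the median was -0.16.

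Among immunoglobulin constant regions, Ighg2c fell. Ighg2c (ENSMUSG00000076612.9) lay at 66.5, 50.2, 118 and 32.5 CPM in PS and 12.4, 5.74, 6.76, 4.04 and 5.71 CPM in rPS. The highest rPS library, rPS 1, was below the lowest PS library, PS 5. It fell by 3.28 ± 0.41 on the log2 scale (SE; edgeR adjusted p = 0.0253) and passed in 10 of 21 alternatives. Ighg2b lay at 102, 56.3, 100.04 and 35.5 CPM in PS and 22.6, 16.7, 18.8, 4.31 and 20.6 CPM in rPS (log2 fold change -2.16 ± 0.44, adjusted p = 0.237). Ighg3, chosen after its values were seen, lay at 79.6, 60.2, 76.2 and 53.8 CPM in PS and 17.2, 20.8, 16.3, 3.10 and 15.8 CPM in rPS (log2 fold change -2.21 ± 0.40, adjusted p = 0.17). Neither overlapped between groups, and neither passed. IgG constant regions are near copies, so the split of reads among them is uncertain. Sdc1, the surface marker of plasma cells, had 114, 73, 156 and 136 counts in PS and 42, 95, 45, 4 and 27 in rPS, lower in every rPS library once scaled, with an edgeR adjusted p of 0.946. Ighm, the IgM heavy chain, lay at 3863, 2513, 3286 and 2820.2 CPM in PS and 2239, 2387, 3391, 739 and 2016 CPM in rPS and overlapped.

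In the plasma cell list, 1 of 17 tested members (of 18) passed, Ighg2c, 16 were negative, 4 did not overlap (1.67% of all genes), and the median was -0.63, which ran from -1.08 to -0.32 over the alternatives. Jchain, which joins secreted IgM and IgA, overlapped, at 154 to 268 CPM in PS (median 198) and 32.5 to 241 CPM in rPS (median 139.8), and Igkc, the kappa light chain, did too, at 521 to 807 CPM in PS (median 693) and 113 to 868 CPM in rPS (median 354). Among germinal centre B cell genes, none of 14 passed and the median was -0.57. The 6 that were lower at an unadjusted p under 0.05 (2.73% of all genes) did not overlap (1.67% of all). Nuggc, an enzyme of germinal centre B cells, had 57, 30, 52 and 25 counts in PS and 6, 5, 1, 0 and 1 in rPS (log2 fold change -3.55 ± 0.62, adjusted p = 0.17). Nuggc was chosen after its values were seen. Mybl1, a MYB factor of those cells, lay at 6.72, 7.86, 5.23 and 2.74 CPM in PS and 1.30, 0.804, 1.75, 0.943 and 1.14 CPM in rPS (log2 fold change -2.27 ± 0.38, adjusted p = 0.141). S1pr2, a receptor that keeps B cells in the germinal centre, was at 14.9 ± 2.99 CPM (SD, n = 4) in PS and 7.69 ± 1.48 CPM (n = 5) in rPS. In Nuggc, Mybl1 and S1pr2 every rPS library was below every PS library. Nuggc and Mybl1 passed the filter on low counts through PS, so the lack of overlap in them describes these genes only. The log2 fold change of Bcl6, the factor that defines the germinal centre state, was -0.21 and that of Fas, a death receptor, -0.13.

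Of the general B cell genes, none of 23 passed or reached an unadjusted p under 0.05. The median was -0.31, which ran from -1.19 to 0.03 over the alternatives. Pax5 overlapped, with rPS 5 lowest and rPS 4 highest. Of 134 immunoglobulin variable segments tested (of 346), none passed, 29 were lower at an unadjusted p under 0.05 (2.73% of all genes), 12 did not overlap (1.67% of all), and the median was -0.62, which was -0.37 without rPS 5 and -0.33 without rPS 4 and 5 together. The exact permutation test of the log2 ratio of Igkc to Cd3e counts, a ratio free of scaling, gave a difference of -0.544 (two-sided p = 0.595; adjusted over 3 ratios, 0.849; smallest p possible 0.0159). The ratio was 1.28 ± 0.277 (SD, n = 4) in PS and 0.74 ± 1.60 (n = 5) in rPS, and ran from -1.68 in rPS 5 to 2.73 in rPS 4. The difference turned to 0.0609 without rPS 5.

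Syt6 (ENSMUSG00000027849.20) rose in rPS. It lay at 0.646, 1.93, 1.28 and 0.912 CPM in PS and 41.7, 21.8, 13.3, 72.2 and 32.96 CPM in rPS, from 5, 12, 12 and 8 counts in PS and 225, 190, 53, 536 and 173 in rPS. Every rPS library was above every PS library, rPS 5 most and rPS 4 least, and these were also the highest and lowest libraries in the summed genes of the T cell receptor complex. Syt6 passed the filter on low counts through its rPS libraries, so the lack of overlap describes this gene only. The log2 fold change was 4.94 ± 0.56 (SE; adjusted p = 0.0253), with a 95% interval of 3.71 to 6.18, and it passed in 14 of 21 alternatives. The means were 1.19 ± 0.554 CPM (SD, n = 4) in PS and 36.4 ± 22.8 CPM (n = 5) in rPS. Of the 3 annotated windows before its start, 2 overlap and share the same single ISRE match, and none held CCAAT.

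The genes next in rank on the higher side did not pass edgeR's threshold. Tfdp2, a partner of E2F factors, lay at 34.4, 35.3, 36.3 and 34.4 CPM in PS and 66.8, 55.9, 59.9, 66.8 and 57.5 CPM in rPS (log2 fold change 0.81 ± 0.12, adjusted p = 0.0623). Its groups were narrow and did not overlap. Bcl2, the survival protein that blocks cell death, lay at 377, 401, 358 and 340.2 CPM in PS and 1004, 705, 569.5, 1253 and 724 CPM in rPS (log2 fold change 1.21 ± 0.22, adjusted p = 0.17). Igfbp4, a secreted binding protein found in naive T cells, lay at 271, 239.5, 384 and 335 CPM in PS and 551, 536, 569.8, 828 and 721 CPM in rPS (log2 fold change 1.06 ± 0.19, adjusted p = 0.17). In both, every rPS library was above every PS library. Cpt1a, the gate of fatty acid entry into mitochondria, was at 50.4 to 69.8 CPM in PS and 88.8 to 139 CPM in rPS (log2 fold change 0.81 ± 0.16, adjusted p = 0.21). Prss12 (log2 fold change 1.14 ± 0.21, adjusted p = 0.17), Zfp609 (log2 fold change 0.56 ± 0.11, adjusted p = 0.21) and Dmbt1 (log2 fold change 3.12 ± 0.55, adjusted p = 0.17) were further genes of this rank. Gucy1a1, a subunit of the nitric oxide receptor chosen after its values were seen, had 14, 8, 27 and 15 counts in PS and 46, 60, 15, 106 and 26 in rPS (log2 fold change 1.99 ± 0.43, adjusted p = 0.29). Bcl2 and Tfdp2 passed in 7 and 6 of 21 alternatives, with limma voom and without rPS 4 among them.

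Receptors and targets of the common gamma chain, the shared subunit of the receptors for interleukins 2, 7 and 15, were described as a list of 20. None passed, 4 were higher at an unadjusted p under 0.05 (background 2.87%), and the median was 0.31. Il7r, the receptor that keeps naive T cells alive, lay at 173, 211, 203 and 138 CPM in PS and 498, 319, 172, 1085 and 259 CPM in rPS (log2 fold change 1.36 ± 0.47, adjusted p = 0.697). It was highest in rPS 5 and rPS 1, and rPS 4 lay inside the PS range. Among other members the log2 fold change of Pim2, a survival kinase, was 0.82, that of Socs1, a feedback inhibitor, 1.07 and that of the kinase gene Jak3 -0.42. Without rPS 5 the median of the list was 0.08. Among 16 tested members of the BCL2 family, none passed, and the median was 0.03. Klf2, a factor of naive T cell trafficking, overlapped, at 414 to 901 against 203 to 1222 CPM. Of 19 tested inhibitors of the cell cycle and genes of quiescence (of 20), none passed and the median was 0.10. Tob1, which restrains T cell activation, lay at 19.9, 16.04, 22.3 and 25.7 CPM in PS and 21.1, 17, 85.9, 60.6 and 35.2 CPM in rPS. rPS 4, 5 and 7 were above every PS library and rPS 1 and 2 within the PS range (log2 fold change 1.06 ± 0.44, adjusted p = 0.842). Txnip, a brake on glucose uptake, was at 755 ± 88.2 CPM (SD, n = 4) in PS and 1052 ± 342 CPM (n = 5) in rPS, and Btg1, an inhibitor of proliferation, at 1524 ± 156 CPM (SD, n = 4) in PS and 1089.5 ± 342 CPM (n = 5) in rPS.

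Transcripts of the drug's own pathway were compared as a list of 35 genes of the mTOR complexes and their upstream regulators. None passed, and 2 were higher and 1 lower at an unadjusted p under 0.05 (2.87% and 2.73% of all genes). All rPS libraries lay above all PS libraries for 2 members and below them for 1 (1.46% and 1.67% of all). DESeq2 called 2, both higher, where it called 42 of all 15652 genes higher. The log2 fold changes ran from -0.68 for Tbc1d7, a subunit of the TSC complex that restrains mTORC1, to 0.94 for Rragd, a Rag GTPase that brings mTORC1 to the lysosome. The median was 0.06, and it was below 0 in 3 of 21 alternatives. Fkbp1a, the protein that rapamycin binds, lay at 81.4, 78.5, 89.5 and 80.8 CPM in PS and 87.8, 78.1, 72.2, 100.3 and 75.4 CPM in rPS (log2 fold change 0.00 ± 0.13, adjusted p = 1, 95% interval -0.28 to 0.29). Mtor lay at 131 to 140.4 and 123 to 185 CPM, with an interval of -0.19 to 0.44, and Rptor and Rictor, which define the 2 mTOR complexes, overlapped too. Sesn1, a brake on mTORC1 chosen after its values were seen, lay at 82.4, 87.1, 88.7 and 96.3 CPM in PS and 117, 124, 140.1, 147 and 116 CPM in rPS (log2 fold change 0.54 ± 0.12, adjusted p = 0.31), without overlap. Of 23 tested genes (of 24) that mTORC1 acts on in translation, none passed, 3 were higher (2.87% of all) and 1 lower (2.73% of all) at an unadjusted p under 0.05, and the median was 0.13. Of 14 tested immunophilins (of 18), the protein family of FKBP12 and the cyclophilins, none passed and the median was 0.03. RNA levels do not measure mTOR activity.

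Among translation genes, of 30 genes of ribosome biogenesis, which build the ribosome in the nucleolus, none passed. Of these, 29 were positive and 1 negative (43.6% of all genes were negative). At an unadjusted p under 0.05, 4 were higher (2.87% of all genes), and the median was 0.20. Nop56, a core protein of the particles that modify ribosomal RNA, lay at 145, 139, 122 and 118 CPM in PS and 161, 144, 191, 229 and 163 CPM in rPS (log2 fold change 0.44 ± 0.16, adjusted p = 0.697). Only rPS 2 lay inside the PS range. Of 78 tested cytosolic ribosomal proteins (of 79), none passed, 64 were positive and 14 negative (43.6% of all genes were negative). At an unadjusted p under 0.05, 11 were higher (2.87% of all) and 1 lower (2.73% of all). All rPS libraries lay above all PS libraries for 6 of them (1.46% of all). The median was 0.24, which was -0.01 with the replicate number as a block. Their summed level was 26563 to 34248 CPM in PS and 30539 to 48629 CPM in rPS, highest in rPS 2. The log2 fold change of Pdcd4, a translation inhibitor degraded after mTORC1 acts, was 0.55 and that of Eef2, an elongation factor, 0.44. Myc lay at 82.1, 86.3, 91.7 and 96.9 CPM in PS and 73.7, 100.5, 234, 148 and 134 CPM in rPS and overlapped.

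Genes of T cell identity were compared next. Of 25 genes of the T cell receptor complex and its first signals, none passed or reached an unadjusted p under 0.05, and the median was -0.02. Cd4 lay at 200.4, 172, 218 and 167 CPM in PS and 113, 127, 106, 271 and 143 CPM in rPS and Cd8a at 329, 409, 418 and 294 CPM in PS and 604, 415, 108, 407 and 277 CPM in rPS. rPS 5 held the most Cd4 and rPS 4 the least Cd8a. Cd4 over Cd8a counts gave a log2 ratio of -0.93 ± 0.234 (SD, n = 4) in PS and -1.14 ± 0.944 (n = 5) in rPS (difference -0.206; two-sided exact permutation p = 0.69, adjusted 0.849), and the sign turned without rPS 1 (0.115). Foxp3, the factor of regulatory T cells, lay at 19.3 to 36.4 and 16.7 to 42.6 CPM, and the 16 tested genes of that list had a median of 0.08 with none past the threshold. The median of 12 CD4 and CD8 lineage genes was 0.01.

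Of 26 tested effector and cytotoxic genes (of 30), none passed, 4 were lower at an unadjusted p under 0.05 (2.73% of all genes), 3 did not overlap (1.67% of all), and the median was -0.21. Gzmb, a protease of killer cells, lay at 5.94, 4.17, 3.20 and 4.10 CPM in PS and 1.48, 2.64, 2.25, 2.16 and 1.71 CPM in rPS (log2 fold change -1.07 ± 0.29, adjusted p = 0.488), every rPS library below every PS library. Klrg1, a receptor of terminal effector cells, lay at 4.78, 2.09, 1.82 and 1.82 CPM in PS and 1.30, 2.18, 0.251, 1.21 and 0.762 CPM in rPS, with PS 1 apart from the rest. Ccl5, a chemokine of effector cells, overlapped, at 39.6 to 54.5 against 28.5 to 60.9 CPM. NK cell genes had a median of -0.36 over 15 tested, none past the threshold. It ran from -0.57 to -0.03 over the alternatives, and was -0.03 for the 9 members with a mean of at least 5 CPM. Ncr1, their activating receptor, lay at 6.98, 9.79, 6.51 and 7.87 CPM in PS and 6.66, 7.69, 6.01, 1.75 and 2.48 CPM in rPS. The log2 fold change of Klrb1c, another NK marker, was -0.01.

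**Figure D4:**
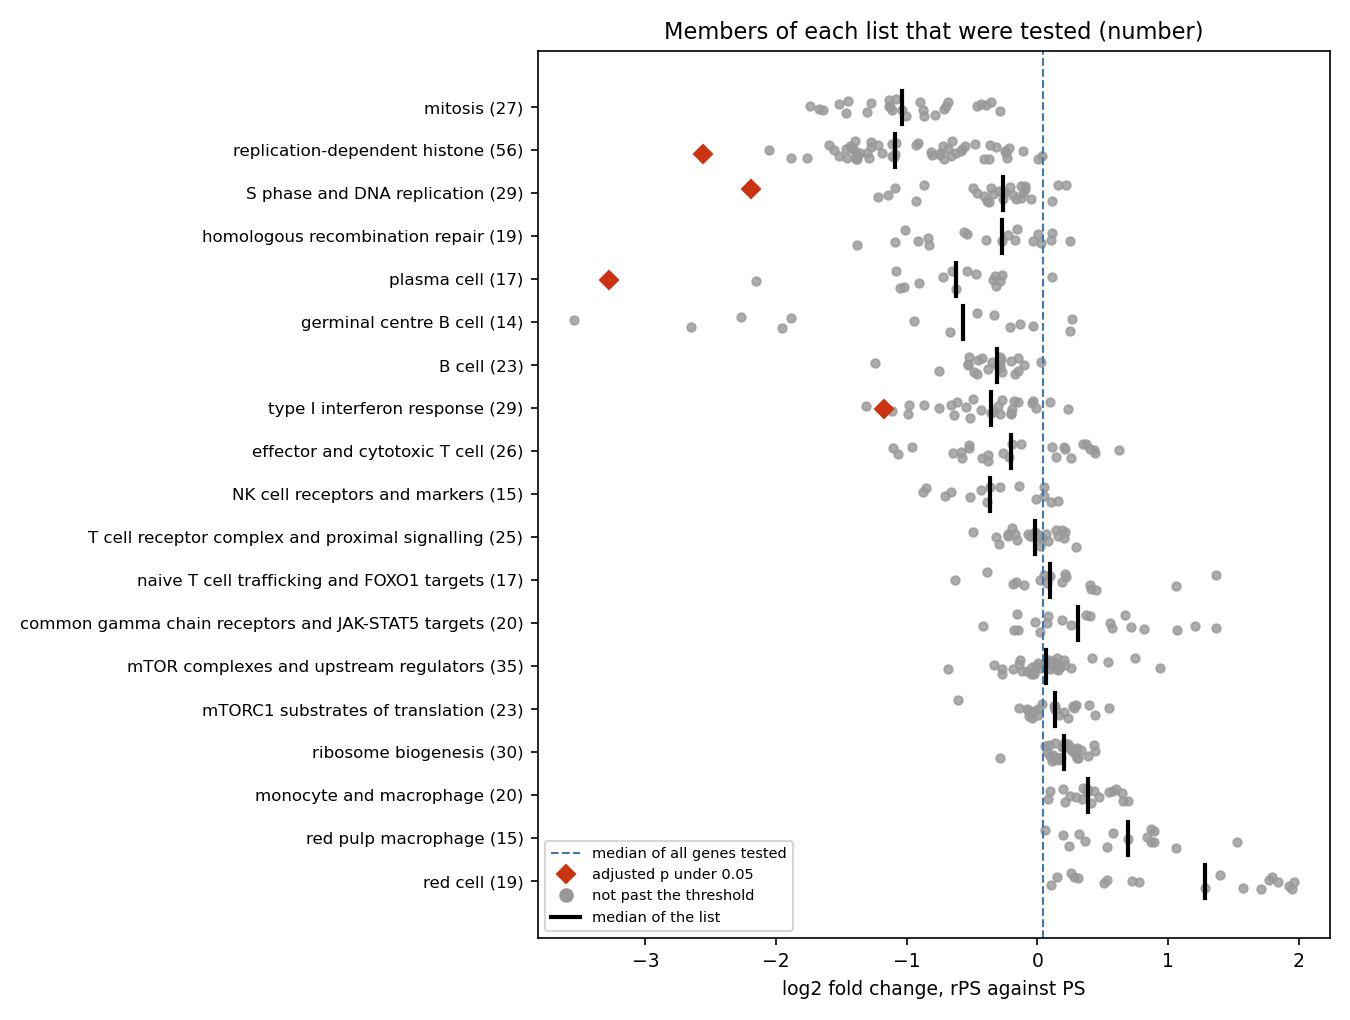
Log2 fold change, rPS against PS, of every tested member of 19 lists (number tested in brackets); red diamonds passed adjusted p 0.05, grey points did not, the black bar is the list's median and the dashed line the median of all genes tested (0.04). The mitosis and histone lists lie furthest left, with medians of -1.04 and -1.09, and the red cell list furthest right, with 1.29.

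Genes of cells that the sort should remove were read next. Of 19 tested red cell genes, none passed, all were positive, 9 were higher at an unadjusted p under 0.05 (background 2.87%), and the median was 1.29. Their summed level was 938, 1279.5, 1594 and 2582 CPM in PS and 1323, 1365, 5259, 236 and 2936 CPM in rPS, so rPS 4 and rPS 7 were highest and rPS 5 lowest. The group medians of this sum ran the other way from the fold changes, 1437 CPM in PS and 1365 CPM in rPS. The median log2 fold change of the red cell list was 0.70 without rPS 4, 1.58 without rPS 5 and 1.12 without both, and ran from 0.35 to 1.61 over all alternatives. The haemoglobin genes that carry most of this sum overlapped, with Hbb-bs at 262 to 590.2 CPM in PS (median 459.7) and 47.2 to 893 CPM in rPS (median 497), while the log2 fold change of Klf1, the factor of red cell precursors, was 1.79 and that of Add2, a membrane skeleton protein, 1.96.

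All 15 genes of the red pulp macrophage list had a positive fold change, with a median of 0.70 that was -0.40 with the replicate number as a block and -0.06 with the red cell list as a covariate. All 20 of the monocyte and macrophage list did too, with a median of 0.38 that was -0.26 and -0.23 in those fits. None of these 35 passed or reached an unadjusted p under 0.05. The summed red pulp list was 1189.5, 955, 752 and 1333 CPM in PS and 3589, 3079, 749, 240.02 and 1422 CPM in rPS, high in rPS 1 and 2. Lyz2, the lysozyme of myeloid cells, lay at 152, 127, 139.97 and 225 CPM in PS and 302, 322, 229, 19.7 and 240.4 CPM in rPS. The log2 ratio of Lyz2 to Cd3e counts differed by 0.383 (two-sided exact permutation p = 0.849, adjusted 0.849), from -0.809 ± 0.401 (SD, n = 4) in PS to -0.426 ± 2.12 (n = 5) in rPS. Without rPS 5 the difference was 1.33 (unadjusted exact permutation p = 0.0286, the smallest that 4 against 4 allow). The part of red cells and macrophages in the gene differences above was not tested beyond the fits with those lists as covariates, which called 142 and 13 genes.

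Pancreatic enzymes, which mark the neighbouring pancreas, were present at low levels. Of 18 acinar genes, 7 passed the filter on low counts, none passed the test, and all 7 were higher at an unadjusted p under 0.05. A gene that passes the filter through its high rPS libraries has to differ, so this count describes the 7 only. The summed level of the list was 20.03, 9.31, 5.87 and 18.6 CPM in PS and 19.99, 249, 158, 23.3 and 78.7 CPM in rPS. rPS 2, 4 and 7 were high and rPS 1 lay inside the PS range and rPS 5 just above it. Cpa1, a carboxypeptidase of digestion, had 7, 1, 1 and 5 counts in PS and 5, 156, 51, 16 and 37 in rPS, and Pnlip, pancreatic lipase, 13, 4, 2 and 13 and 10, 391, 50, 16 and 35. Dmbt1, among the genes named above, was highest in rPS 4, 2 and 7 as well, at 26.8, 18.03 and 16.4 CPM. The part of pancreatic RNA in the other differences was not tested.

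The 6 genes that passed were also read in mice given rapamycin without the carrier, 6 injected under the skin with it in 0.2% carboxymethylcellulose (R) and 6 given Rapamune by mouth (RO), all at 1 mg/kg. No test was made, since these levels, scaled over 21 libraries, only place the values beside others. R 3 and RO 3 held few T cell transcripts, with Cd3e at 11.0 and 53.7 CPM, and 30.8% of the tested genes were at 0 in RO 7, so ranges leave out these 3. Syt6 was at 10.9 to 23.9 CPM in R and 1.24 to 3.84 CPM in RO: R lay above PS and reached into the rPS range, while RO had at most 3.84 CPM. Pclaf was at 4.19 to 5.16 CPM in R and 8.67 to 13.4 CPM in RO, R from the upper end of the rPS range to just above it and RO in or below the PS range. Oas3 was at 25.2 to 35.6 CPM in R and 37.6 to 48.04 CPM in RO, and Ighg2c at 5.30 to 25.6 CPM in R and 23.9 to 99.1 CPM in RO. Hist1h2bk was at 3.19 to 7.96 CPM in R and 2.48 to 3.71 CPM in RO, so R reached above the PS range. Cenpk was spread in both, at 0.456 to 4.10 CPM in R and 1.007 to 3.68 CPM in RO. In the libraries left out, Syt6 was at 0.169 CPM in R 3, 3.15 CPM in RO 3 and 3.84 CPM in RO 7. Oas3 was at 84.99, 157 and 43.5 CPM in them, above the ranges of both groups in R 3 and RO 3. Cenpk, Ighg2c and Hist1h2bk are listed at 0 in RO 7.

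Genes that did not pass were read in the same libraries. Bcl2 was at 562 to 734 CPM in R and 411 to 488 CPM in RO, R partly in the rPS range and RO above PS. Top2a was at 21.5 to 53.8 CPM in R and 50.1 to 62.9 CPM in RO, Mki67 at 71.3 to 237 CPM in R and 79.7 to 158 CPM in RO and Il7r at 208 to 365 CPM in R and 149.9 to 223 CPM in RO. Mybl1 was at 0.558 to 1.40 CPM in R and 2.01 to 4.43 CPM in RO, R in or below the rPS range and RO in or just below that of PS. Hist1h2bj, low in rPS, was at 6.61 to 15.1 CPM in R and 3.51 to 9.33 CPM in RO, so R again reached above PS.

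**Figure D5:**
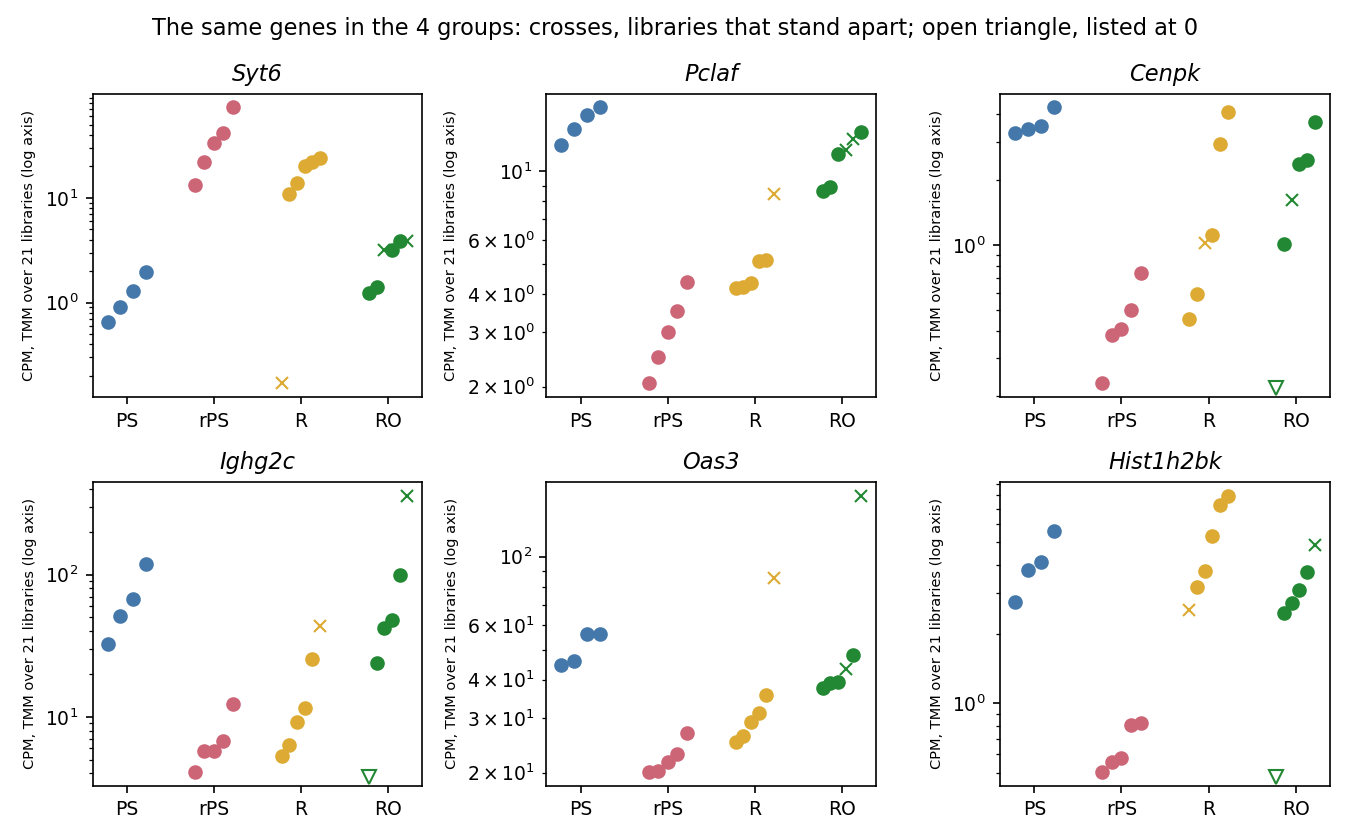
CPM scaled by TMM over 21 libraries (log axis) of the 6 genes in PS (n = 4), rPS (n = 5), R (n = 6) and RO (n = 6); each point is a library, sorted by level within its group, crosses are R 3, RO 3 and RO 7, and an open triangle marks a value of 0 in RO 7, which a log axis cannot show. Syt6 is high in rPS and in R but not in RO, and Hist1h2bk is lowest in rPS apart from the value of 0 in RO 7.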

How the data were processed

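Bulk RNA of sorted spleen T cells was measured in 28 libraries, of which 9 were compared here (4 PS, 5 rPS) and 12 more (6 R, 6 RO) were read for levels only. The deposited files hold expected counts per gene, which the authors made from reads trimmed with Trimmomatic 0.39 and aligned with STAR 2.7.5a to GRCm39, and Cufflinks 2.1.1 and Cuffdiff are also named, per the submitters' processing notes. How reads were counted, on which annotation and with which strand setting is not given in the sources used here, so genes that overlap or share sequence can trade reads. Although the series is described as single-cell data, each library has 1 value per gene and was treated as bulk.

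Expected counts were rounded to whole numbers. Of 55413 gene IDs per file, 52082 (94%) were matched to a symbol in a table of gene names. Genes were kept by edgeR's filterByExpr, libraries were scaled by TMM, and rPS was compared with PS in edgeR 4.0.16 (R 4.3.3) with a robust quasi-likelihood fit and Benjamini-Hochberg adjustment over all 15652 genes tested, at a threshold of 0.05. A gene can pass filterByExpr because of a single group, and its difference is then partly set by the filter. Such genes include Cenpk, Hist1h2bk, Hist1h2bm, Cep55, Bub1, Nuggc and Mybl1 (through PS) and Syt6 (through rPS). The code was tested on simulated data. Library totals of 4286896 to 9139930 counts set the precision of low genes. The 3 log2 ratios used a pseudocount of 0.5 and a two-sided exact permutation test over 126 arrangements. DESeq2 1.42.0, limma 3.58.1 (voom with quality weights), other filters and scalings, marker covariates, a fit of all 28 libraries, a replicate block and fits that leave out libraries were alternatives.

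The members and gene lists were chosen with earlier results of these data known. Genes were named by rule: called genes with a mean of at least 2 CPM and an official symbol, the 10 with the smallest p, the 8 with the smallest p in a direction with fewer than 3 calls, up to 4 per list with a call plus its most abundant member that did not pass, and a set of T cell, mTOR and marker genes. Genes outside it were chosen after their values were seen. Members without values by library are given by their log2 fold change as examples of their list. Promoters came from a RefSeq table on GRCm38.p6, searched on both strands for the CCAAT box, the CHR element (TTTGAA or else TTCGAA), the E2F elements TTTCCCGC and also TTTGGCGC, and the ISRE. Some genes named by this rule are not reported here.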

Additional observations from a re-analysis of the deposited data

Results flagged for a closer look

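A library was picked out where its distance to the nearest other library of its group, set against the whole range of the group, passed Dixon's 95% critical value. Of 156 groups of values checked, 11 did, and chance gives about 1 in 20. In PS, replicate 4 was high in Hist1h2bj, an H2B histone gene (10.8 CPM), replicate 5 was low in Hmgb2 (91.9 CPM) and Mki67 (89.7 CPM), which are both high in dividing cells, and replicate 1 was high in Klrg1, a receptor of effector cells (4.78 CPM). In rPS, replicate 4 was high in the cytokinesis motor gene Kif20a (6.26 CPM).

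The other 6 were all rPS replicate 5, the library with the highest summed T cell receptor genes and the lowest summed B cell genes. It was high in Trac, the constant region of the T cell receptor alpha chain (232.6 CPM), in Cd4 (271 CPM) and in Cish, a feedback gene of cytokine receptors (39.4 CPM). It was low in Ighg3 (3.10 CPM), in Txndc5, a protein-folding enzyme of plasma cells (62.8 CPM), and in the log2 ratio of Lyz2 to Cd3e counts (-4.19).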

How the results depend on the processing

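The count of 6 genes (1 higher, 5 lower) was also 6 with DESeq2 size factors in edgeR and with library sizes free of immunoglobulin, haemoglobin and mitochondrial genes. It was 17 (4 higher, 13 lower) with no filter on low counts and 4 (1 and 3) at a mean of at least 5 CPM. DESeq2 called 111 (42 and 69), limma voom 12 (4 and 8), and a fit of all 28 libraries 4 (0 and 4). With the B cell list as a covariate it was 7 (3 and 4), with the monocyte and macrophage list 13 (2 and 11), and with the red cell list 142 (25 and 117). Without rPS 4 and rPS 5 together, chosen after seeing the data, it was 114 (65 and 49). Leaving out each library gave 0 to 10 calls, 0 to 4 higher and 0 to 7 lower. With the replicate number as a block, edgeR called 0 (0 higher, 0 lower), with 260 genes at an unadjusted p under 0.05. Only numbers 1, 4 and 5 occur in both groups, so PS 3, rPS 2 and rPS 7 added nothing to the comparison in that fit. The labels do not say that shared numbers pair the samples. Deviations of same-numbered libraries correlated at 0.203, -0.0189 and -0.397. Those of other PS and rPS pairs ran from -0.379 to 0.471, so these 3 values cannot show whether samples are paired. The cause of these changes in the count was not tested.

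The log2 ratio of Cd4 to Cd8a ran from -0.486 to 0.115 over the fits that leave out a library and reversed without rPS 1 (0.115). That of Igkc to Cd3e ran from -1.04 to 0.0609 and reversed without rPS 5 (0.0609). That of Lyz2 to Cd3e ran from 0.0755 to 1.33. Of 75 named genes with alternatives, 13 changed sign in at least 1, none of them among the 6. Genes at a few counts per library, such as Cenpk and Hist1h2bk, are limited by depth.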
